A study of Mus musculus with 6 samples.

Results

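Glutathione peroxidases reduce peroxides at the expense of glutathione, and the ferroptosis enzymes set how easily membrane lipids are oxidised when iron is available. The 10 genes described here are Gpx1, Gpx2, Gpx3, Gpx4, Gpx7, Gpx8, Acsl4, Aifm2, Lpcat3 and Alox15. They were found by gene symbol among the 24422 genes of the count tables, and all 10 were present. Whole kidneys of mice at postnatal day 60 were compared by poly-A RNA-seq, with 3 control libraries against 3 libraries labelled TfR1KO;KspCre. Controls carried the wild type genotype. The other mice were labelled Tfr1f/f;KspCre, in which Cre under the Ksp-cadherin promoter deletes floxed exons of the transferrin receptor gene (Tfrc) in the distal nephron and collecting duct. All mice received a diet with 220 ppm iron. Because the whole organ was sequenced and Cre acts in only some of its tubules, the values average over deleted and undeleted cells. In such samples fewer cells of a type and less RNA per cell cannot be told apart.

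In ferroptosis, iron-dependent oxidation of polyunsaturated phospholipids kills the cell. Gpx4 is the peroxidase that reduces these phospholipid hydroperoxides within membranes, and Aifm2 (FSP1) protects membranes separately by regenerating ubiquinol. Acsl4 and Lpcat3 act in the opposite direction, since they load polyunsaturated fatty acids into phospholipids, and Alox15 is a lipoxygenase that can oxidise them. Gpx1 is the abundant cytosolic peroxidase, Gpx2 its epithelial relative in the gut, and Gpx3 the secreted plasma enzyme for which the kidney, chiefly the proximal tubule, is the main source. Gpx7 and Gpx8 reside in the endoplasmic reticulum, where they are linked to oxidative protein folding.

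The peroxidases differ at the catalytic residue, and this difference is written in the reading frame. The lines below show the codon of that residue in capitals with 6 codons on each side, read 5′ to 3′ on the coding strand from the GENCODE M1 transcripts of mouse build NCBIM37, the same assembly as mm9. They are shown because the codon divides the 6 peroxidases described here into 4 and 2, and both that passed the test are of the smaller class. Gpx5 and Gpx6, outside these 6, also have a cysteine codon. Gpx6 was lower in the knockouts without passing the test (log2 fold change -2.09).
Gpx1: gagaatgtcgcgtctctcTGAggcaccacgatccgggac
Gpx2: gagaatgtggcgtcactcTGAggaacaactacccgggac
Gpx3: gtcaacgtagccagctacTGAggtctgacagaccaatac
Gpx4: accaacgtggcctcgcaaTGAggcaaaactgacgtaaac
Gpx7: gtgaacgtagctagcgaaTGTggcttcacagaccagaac
Gpx8: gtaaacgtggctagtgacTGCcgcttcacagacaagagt
In Gpx1 to Gpx4 the TGA is read as selenocysteine, and each of these reading frames held 1 internal TGA. Gpx7 has TGT and Gpx8 has TGC, both cysteine codons, and neither frame held an internal TGA. The Gpx7 and Gpx8 windows shared 30 of 39 bases, and the Gpx1 and Gpx2 windows 33 of 39.

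The libraries held between 11501053 and 21001341 counts. Values are given in CPM, a gene's count relative to the scaled total of its library. The TMM scaling adjusts library totals so that most genes are centred, and a gene was called changed when its adjusted p was under 0.05 in the quasi-likelihood test of edgeR, with p-values corrected by Benjamini-Hochberg across the 15171 genes that passed the filter on low counts. Tfrc itself did not separate the groups. It stood at 138 CPM, 168 CPM and 62.0 CPM in the controls and at 214 CPM, 86.0 CPM and 40.6 CPM in the knockouts (log2 fold change -0.11, adjusted p = 0.911). The library labelled knockout 1 thus had more Tfrc than any control, and knockout 2 had more than control 3. The labels are not borne out by this count, although counts over the whole gene in whole kidney do not show the deleted exons. In summed proximal tubule markers knockout 1 was outside the control range (5960 against 11111 to 14477 CPM), as in macrophage markers (540 against 179 to 202 CPM). In thick ascending limb markers it was inside that range (6200 against 3980 to 9711 CPM). Control 2 alone carried Y-linked transcripts (1451 counts of Ddx3y against 1 to 4 elsewhere). It had 52 counts of Xist, against 10458 to 23845 elsewhere. By these transcripts it was the only male library, so sex was not balanced between the groups. Results are therefore given with and without these libraries.

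Of the 10 genes, 8 passed the filter, and 2 of the 8 were called, Gpx7 and Gpx8, both higher in the knockouts. Among all tested genes 17.2% were called, 10.6% higher and 6.64% lower. Control and knockout values were fully separate in 6 of the 8 members, against 46.0% of all tested genes. In 3 of these the knockouts were higher (Gpx7, Gpx8 and Acsl4; background 23.8%) and in 3 lower (Gpx1, Gpx3 and Lpcat3; background 22.2%). With so few members these shares set no member apart from the table as a whole. The median log2 fold change of the 8 was -0.40, beside 0.02 over all tested genes.

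**Figure D1:**
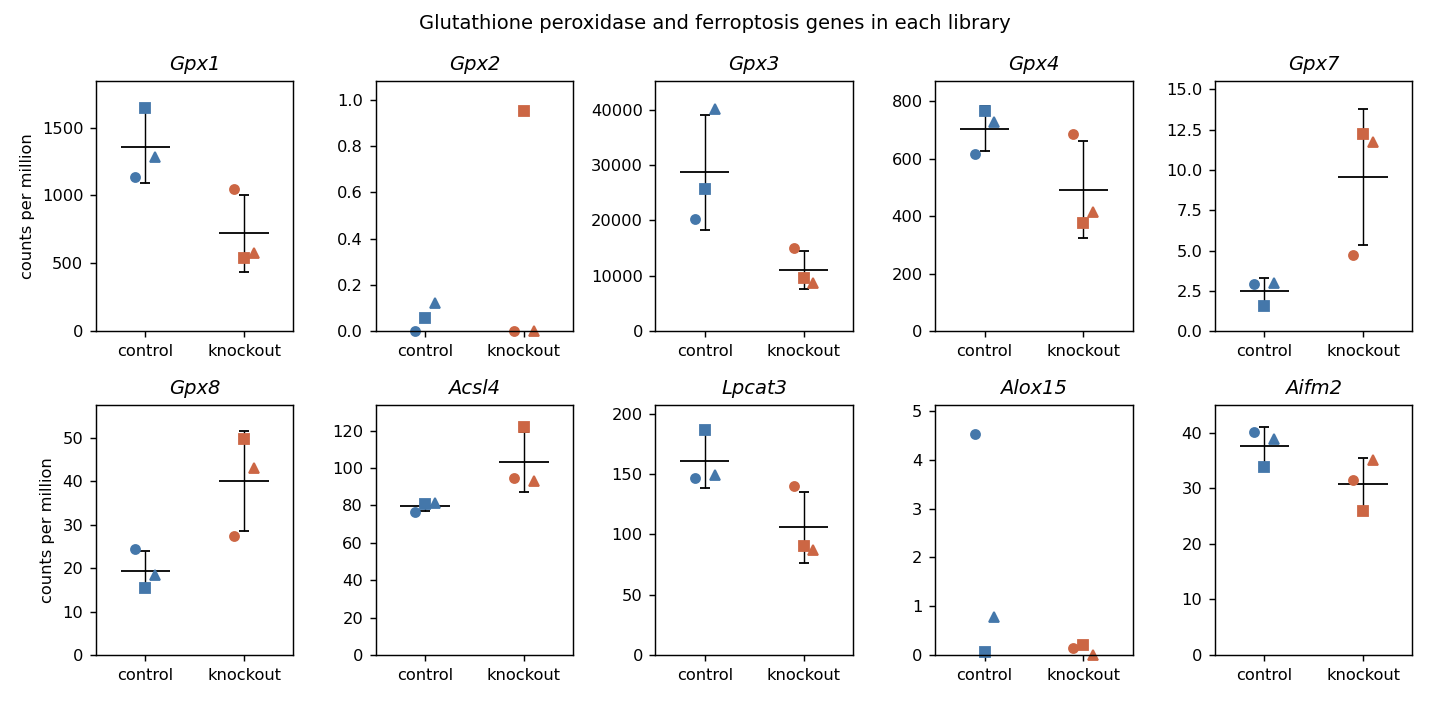
CPM (vertical axes, from 0) of the 10 genes in each library, with controls in blue and knockouts in orange; circles, squares and triangles are libraries 1, 2 and 3, and the bars show the mean ± SD (n = 3) for the 8 genes that passed the filter. Gpx7 and Gpx8 are higher in all 3 knockouts than in any control, and Gpx1, Gpx3 and Lpcat3 lower.

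Gpx3 (chr11:54715955-54723879, plus strand) was among the most abundant transcripts of the kidney in both groups. Its CPM was 20185, 25638 and 40170 in the controls and 14946, 9569 and 8725 in the knockouts. Every knockout lay below every control, but control 3 was far above the other controls. The means were 28664 ± 10330 (SD, n = 3) and 11080 ± 3375 (SD, n = 3), and the log2 fold change of -1.37 (SE 0.61) did not pass the test (adjusted p = 0.146). By raw counts Gpx3 ranked first or second of all genes in all 6 libraries. It took 3.71% of the counts of control 3 (95% Wilson interval 3.70 to 3.72) and 0.990% of those of knockout 3 (0.984 to 0.996), intervals that cover counting error only.

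Gpx1 (chr9:108241607-108242671, plus strand) was next in abundance among the peroxidases by these counts, in which Gpx4 may be too low for the reason given below. The controls had 1133 CPM, 1646 CPM and 1282 CPM, and the knockouts 1049 CPM, 538 CPM and 576 CPM. Knockouts 2 and 3 were well below the control mean of 1354 ± 264 (SD, n = 3), while the library labelled knockout 1 lay just below the lowest control. The log2 fold change was -0.91 (SE 0.34), and it did not pass the test (adjusted p = 0.0955).

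Gpx4 (chr10:79509911-79519184, plus strand), the central brake on ferroptosis, was at 617 CPM, 767 CPM and 729 CPM in the controls. The knockouts had 685 CPM, 377 CPM and 414 CPM, so that the library labelled knockout 1 fell within the control range and the groups overlapped. The log2 fold change was -0.52 (SE 0.28, adjusted p = 0.214). Its count carries an extra uncertainty, because 733 of the 995 bases of its transcript align to another locus (chr10:45595140-45595872) at 99.7% identity, and the authors kept uniquely mapped reads.

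Gpx2 (chr12:77893322-77896541, minus strand) was nearly absent and did not pass the filter. Its raw counts were 0, 1 and 2 in the controls and 0, 19 and 0 in the knockouts, so that almost all of its reads came from 1 library. That library, knockout 2, also stood apart in the 7 urothelial markers, whose summed level was 861 CPM there and between 28.2 CPM and 79.8 CPM in the other 5 libraries. Krt5, a keratin of the basal urothelial layer, reached 347 CPM there and at most 12.3 CPM elsewhere. The part of these cells in the Gpx2 count was not tested. A count of 0 allows up to 3 counts, and a near-identical copy of Gpx2 lies on chr7:107413054-107414071 (96.9% identity over 1021 aligned bases).

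The cysteine enzymes were the members that passed the test. Gpx7 (chr4:108072995-108079566, minus strand) had raw counts of 59, 27 and 50 in the controls and 96, 244 and 153 in the knockouts. On the CPM scale this was 2.94, 1.59 and 3.00 against 4.71, 12.2 and 11.7, with every knockout above every control. The means of 2.51 ± 0.798 (SD, n = 3) and 9.56 ± 4.21 (SD, n = 3) differed by 1.92 on the log2 scale (SE 0.46, adjusted p = 0.0381).

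Gpx8 (chr13:113832971-113836596, minus strand) was better covered, with 491, 262 and 307 raw counts in the controls and 557, 990 and 563 in the knockouts. Its CPM was 24.4, 15.4 and 18.4 against 27.3, 49.7 and 43.1. Here too the groups did not overlap, although the gap between control 1 and the library labelled knockout 1 was small. The group means of 19.4 ± 4.60 and 40.0 ± 11.5 (SD, n = 3 each) differed by 1.04 on the log2 scale (SE 0.27, adjusted p = 0.0449).

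Both calls were close to the threshold, and each of 5 libraries was needed for them. Without the library labelled knockout 1 they remained, with log2 fold changes of 2.24 for Gpx7 (adjusted p = 0.00571) and 1.25 for Gpx8 (adjusted p = 0.00868). Without any 1 of control 1, control 2, control 3, knockout 2 or knockout 3 neither was called, the adjusted p lying between 0.0914 and 0.127 for Gpx7 and between 0.0822 and 0.141 for Gpx8. In those 5 fits the whole table gave 0, 0, 0, 73 and 2 calls. The direction held in every one of them, with log2 fold changes of 1.67 or more for Gpx7 and 0.85 or more for Gpx8. limma-voom on the 6 libraries did not call either (adjusted p = 0.0619 and 0.0586), while DESeq2 called both, with Gpx1, Gpx3 and Alox15, where 28.5% of all genes were called.

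Among the genes that shape the membrane lipids, Acsl4 and Lpcat3 lay on opposite sides. Acsl4 (chrX:138752536-138825078, minus strand), which activates arachidonic and adrenic acid, had 76.6 CPM, 80.5 CPM and 81.3 CPM in the controls. In the knockouts it had 94.6 CPM, 122 CPM and 93.2 CPM, all above the controls. The controls were tightly grouped and the change was small (log2 fold change 0.38, SE 0.15, adjusted p = 0.109). With library totals as the only scaling, which moved the median of all genes by 0.27 on the log2 scale, Acsl4 stood at 0.65 and was called (adjusted p = 0.0325).

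Lpcat3 (chr6:124613045-124654436, plus strand), which places such fatty acids into phospholipids, had 147 CPM, 187 CPM and 149 CPM in the controls and 140 CPM, 90.8 CPM and 87.4 CPM in the knockouts. The groups did not overlap, but the library labelled knockout 1 was just below the lowest control. The log2 fold change was -0.60 (SE 0.22), and it did not pass the test (adjusted p = 0.0982). Over the 6 libraries its centred log2 CPM followed that of Gpx4 more closely than any other pair of members followed each other, with a root mean square difference of 0.11.

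Alox15 (chr11:70157654-70165533, minus strand) did not pass the filter, its counts being 91, 1 and 13 in the controls and 3, 4 and 0 in the knockouts. Control 1 held most of the reads, control 3 lay above the knockouts, and control 2 was as low as the knockouts. The eosinophil markers, 4 genes of a cell type known for this lipoxygenase, summed to 0 CPM in control 1 and to at most 3.31 CPM in any library. The part of these cells in the Alox15 counts was not tested. Aifm2 (chr10:61178011-61202008, plus strand) changed least, at 40.1 CPM, 33.8 CPM and 38.9 CPM in the controls and 31.5 CPM, 25.8 CPM and 35.1 CPM in the knockouts. Its groups overlapped (log2 fold change -0.29, SE 0.16, adjusted p = 0.220), and 244 of its exonic bases are shared with H2afy2 on the opposite strand, which an unstranded library does not separate.

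The library labelled knockout 1 lay nearest to the controls in 6 of the 8 tested members, namely Gpx1, Gpx3, Gpx4, Gpx7, Gpx8 and Lpcat3. Without it, 6 of the 9 members then tested were called, against 34.4% of all tested genes. Leaving out the knockout nearest to the controls widens the difference between the groups, so calls gained in this way are not separate support. Over the whole table the calls went from 2612 to 5332 genes. Gpx7 and Gpx8 were higher, while Gpx1 (log2 fold change -1.29, adjusted p = 0.00894), Gpx3 (-1.66, adjusted p = 0.0272), Gpx4 (-0.84, adjusted p = 0.0160) and Lpcat3 (-0.86, adjusted p = 0.0113) were lower. Without control 2 no member was called and no gene of the table was. Acsl4 and Aifm2 were not called with either library left out.

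**Figure D2:**
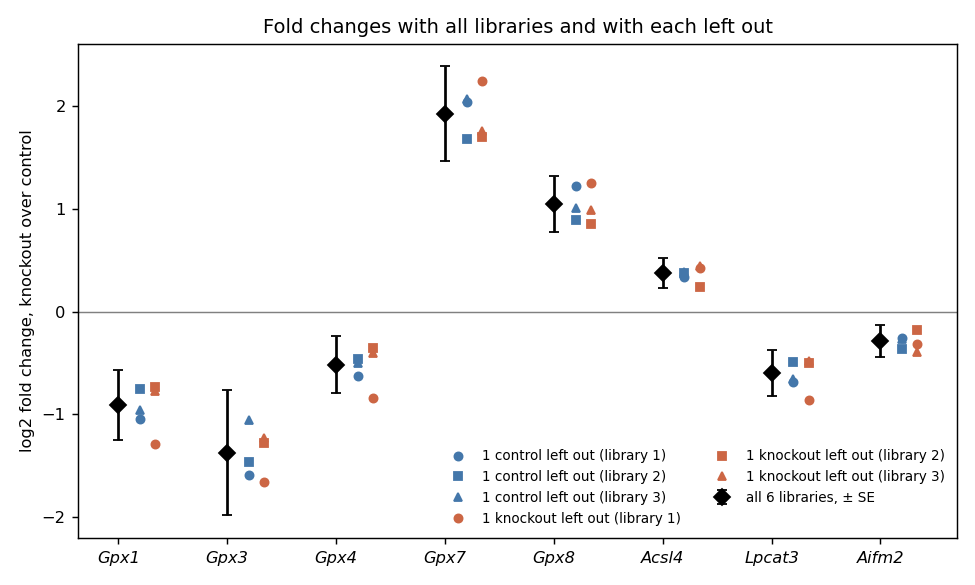
Log2 fold change of knockout over control (vertical axis) for the 8 tested genes; black diamonds with bars are the fit to all 6 libraries ± SE, and the coloured symbols are fits with 1 control (blue) or 1 knockout (orange) left out. Each gene keeps its side of 0 in all 6 such fits, from 1.67 to 2.24 for Gpx7 and from -1.66 to -1.06 for Gpx3.

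To compare levels between genes, CPM was divided by transcript length in kilobases. In the controls the mean level per kilobase ran from Gpx3 (17983) through Gpx1 (1598), Gpx4 (708), Lpcat3 (67.8), Gpx8 (19.1), Acsl4 (15.1) and Aifm2 (12.2) to Gpx7 (1.95). Gpx8 and Acsl4 overlapped in the controls, and the other neighbours among these 8 genes did not. The level of Gpx4 may be too low, since 733 of its 995 bases align to another locus and only uniquely mapped reads were kept. Its place below Gpx1 and the share of Gpx3 given here are uncertain to that extent. Alox15 (0.743) and Gpx2 (0.0559) came last, and the controls of Alox15 overlapped with those of both Gpx7 and Gpx2. In the knockouts the means were 6951 for Gpx3, 851 for Gpx1, 495 for Gpx4, 44.7 for Lpcat3, 39.4 for Gpx8, 19.5 for Acsl4, 9.98 for Aifm2 and 7.42 for Gpx7. Per kilobase Gpx3 made up between 82.7% and 91.7% of the transcripts of the 6 peroxidases in every library. Gpx7 and Gpx8 thus remained a small share of these 6. The mean of Gpx6, a cysteine enzyme outside these 6, was 52.0 per kilobase in the controls and 12.1 in the knockouts.

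**Figure D3:**
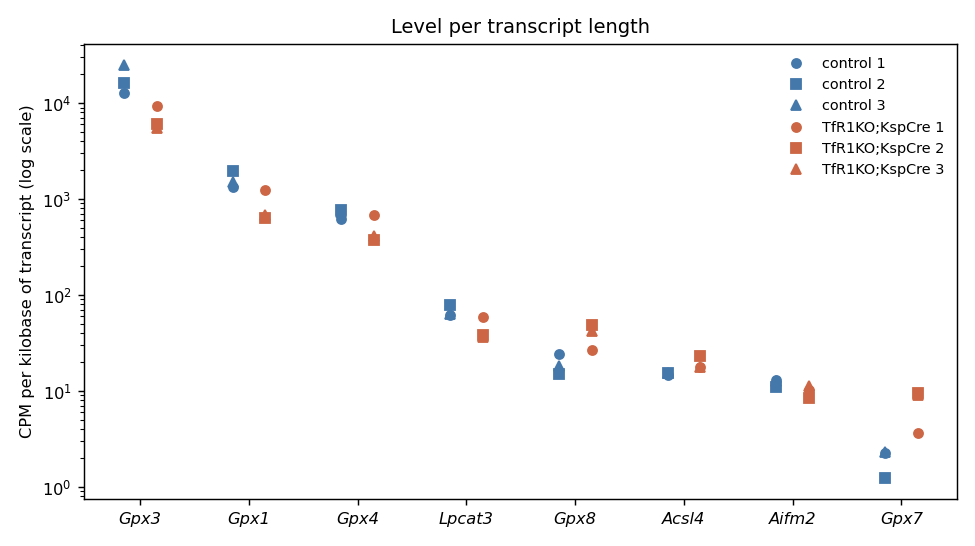
Level in CPM per kilobase of transcript (vertical log axis) of the 8 tested genes in the 3 controls (blue) and 3 knockouts (orange). The order of the genes spans from Gpx3, with a control mean of 17983, to Gpx7, with 1.95, and Gpx8 is near Lpcat3 in the knockouts (39.4 and 44.7).

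The remaining genes of the glutathione peroxidase family were Gpx5 and Gpx6, both with a cysteine codon in the mouse (TGC and TGT). Gpx5 had 0 or 1 counts in each library. Gpx6 was at 77.1 CPM, 76.6 CPM and 40.2 CPM in the controls and at 39.5 CPM, 4.22 CPM and 1.61 CPM in the knockouts, without overlap but with a wide spread (log2 fold change -2.09, SE 1.03, adjusted p = 0.181). Without the library labelled knockout 1 Gpx6 was called (-4.44, adjusted p = 0.00315). Of the tested cysteine enzymes, Gpx7 and Gpx8 were thus higher in the knockouts and Gpx6 lower. Any part of the codon in this was not tested.

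A group that shares the TGA codon was also read from the annotation. Among the counted genes, 21 had a reading frame with an internal TGA, a list formed after the members' values were known and not curated for selenoproteins. Of these 18 were tested, 1 was called higher and 1 lower, and their median log2 fold change was -0.21. Sepn1, a selenoprotein of the endoplasmic reticulum, rose by 1.34 (adjusted p = 0.0305), and Sephs2, named below, fell. Leaving out the members, 15 were tested, with a median of -0.16. Txnrd1, the cytosolic thioredoxin reductase, had a log2 fold change of 0.13 (adjusted p = 0.568), and Sepp1, the selenium carrier of plasma, one of -1.32 (adjusted p = 0.0798); these were named after their values were seen.

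Around the 10 members stood 115 genes in 8 pathway lists, of which 110 were tested. In these lists 13 of the 110 rose, beside 10.6% of all tested genes, and 19 fell, beside 6.64%. The median log2 fold change of the 110 was -0.51, and that of all tested genes 0.02. Without the library labelled knockout 1 the counts were 16 and 48 of 111, in a fit that called 2788 genes higher and 2544 lower of 15494. With any 1 of the other 5 libraries left out none was called.

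In glutathione synthesis and recycling 11 genes were tested, 1 rose, 2 fell and 8 were not called (median -1.21). Without the library labelled knockout 1, 1 was called higher and 6 lower. Slc7a11, the cystine importer that feeds glutathione synthesis, rose from 0.340 ± 0.116 to 2.79 ± 2.17 CPM (SD, n = 3 each; log2 fold change 3.03, adjusted p = 0.0339). Gclm, the modifier subunit of glutamate-cysteine ligase, fell from 244 ± 73.0 to 87.4 ± 38.5 CPM (log2 fold change -1.48, adjusted p = 0.0414). Chac2, which degrades glutathione, fell from 33.1 ± 5.92 to 12.4 ± 5.46 CPM (-1.41, adjusted p = 0.0355). The cystine importer and this subunit of the first enzyme of synthesis thus moved in opposite directions, from very different levels.

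Selenoprotein synthesis and selenium supply fell where it was called. Of 10 tested genes 4 fell and none rose at an adjusted p under 0.05 (median -0.83), and 6 were called lower without the library labelled knockout 1. Sephs2, which makes the selenium donor for selenocysteine, fell from 363 ± 57.6 to 125 ± 65.0 CPM (SD, n = 3 each; log2 fold change -1.54, adjusted p = 0.0380). Lrp2 (megalin), the proximal tubule receptor that recovers filtered selenoprotein P among many ligands, fell from 2705 ± 318 to 504 ± 347 CPM (-2.42, adjusted p = 0.0326). Lrp2 is also 1 of the 9 proximal tubule markers.

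Other enzymes that remove peroxide and superoxide gave 4 falls and no rise among 14 tested (median -0.75), and 11 falls and no rise without the library labelled knockout 1. Cat, the peroxisomal catalase, fell from 857 ± 145 to 321 ± 146 CPM (SD, n = 3 each; log2 fold change -1.42, adjusted p = 0.0411). Prdx5, a peroxiredoxin of mitochondria and peroxisomes, fell from 1328 ± 203 to 499 ± 245 CPM (-1.41, adjusted p = 0.0458).

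The list of lipid substrates and lipoxygenases was divided, with 6 genes higher and 1 lower of 24 tested (median 0.00). Without the library labelled knockout 1 it had 8 higher and 5 lower of 25. Lpcat2, a lysophosphatidylcholine acyltransferase of inflammatory cells, rose from 1.39 ± 0.428 to 12.0 ± 11.3 CPM (SD, n = 3 each; log2 fold change 3.11, adjusted p = 0.0363). Alox5ap, the activating protein of 5-lipoxygenase, rose from 3.21 ± 0.554 to 18.8 ± 10.4 CPM (2.55, adjusted p = 0.0286). Por, the cytochrome P450 reductase that can start phospholipid peroxidation, fell from 309 ± 63.5 to 131 ± 40.4 CPM (-1.23, adjusted p = 0.0332). Lpcat2 and Alox5ap are typical of leukocytes, and 7 of 8 macrophage markers were called higher in these libraries, their summed level being 179 to 202 CPM in the controls and 540 to 1915 CPM in the knockouts. The part of these cells in the rise was not tested.

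In ubiquinone and tetrahydrobiopterin defence, the setting in which Aifm2 works, 1 gene rose and 6 fell of 20 tested (median -0.60). Without the library labelled knockout 1 the counts were 1 and 12. Gch1, the first enzyme of tetrahydrobiopterin synthesis, rose from 3.08 ± 0.957 to 7.64 ± 2.41 CPM (SD, n = 3 each; log2 fold change 1.30, adjusted p = 0.0478). Pdss1, which builds the side chain of ubiquinone, fell from 11.8 ± 4.92 to 3.79 ± 1.46 CPM (-1.63, adjusted p = 0.0424).

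Iron handling gave 2 falls and no rise among 12 tested (median -0.39), and 4 falls and no rise without the library labelled knockout 1. Aco1, the iron regulatory protein that is an aconitase when it holds an iron-sulphur cluster, fell from 458 ± 69.6 to 191 ± 73.9 CPM (SD, n = 3 each; log2 fold change -1.26, adjusted p = 0.0384). Ncoa4, the receptor that delivers ferritin for degradation, fell from 233 ± 35.3 to 135 ± 26.8 CPM (-0.78, adjusted p = 0.0468). Among 18 response genes and regulators 5 rose and none fell at an adjusted p under 0.05 (median 0.19), whereas 6 were called higher and 3 lower without the library labelled knockout 1. Atf3, a stress-induced transcription factor, rose from 2.06 ± 0.939 to 24.1 ± 13.1 CPM (3.55, adjusted p = 0.0271). Cd44, a hyaluronan receptor of injured tubules and leukocytes, rose from 3.33 ± 0.449 to 70.6 ± 44.1 CPM (4.40, adjusted p = 0.0271).

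**Figure D4:**
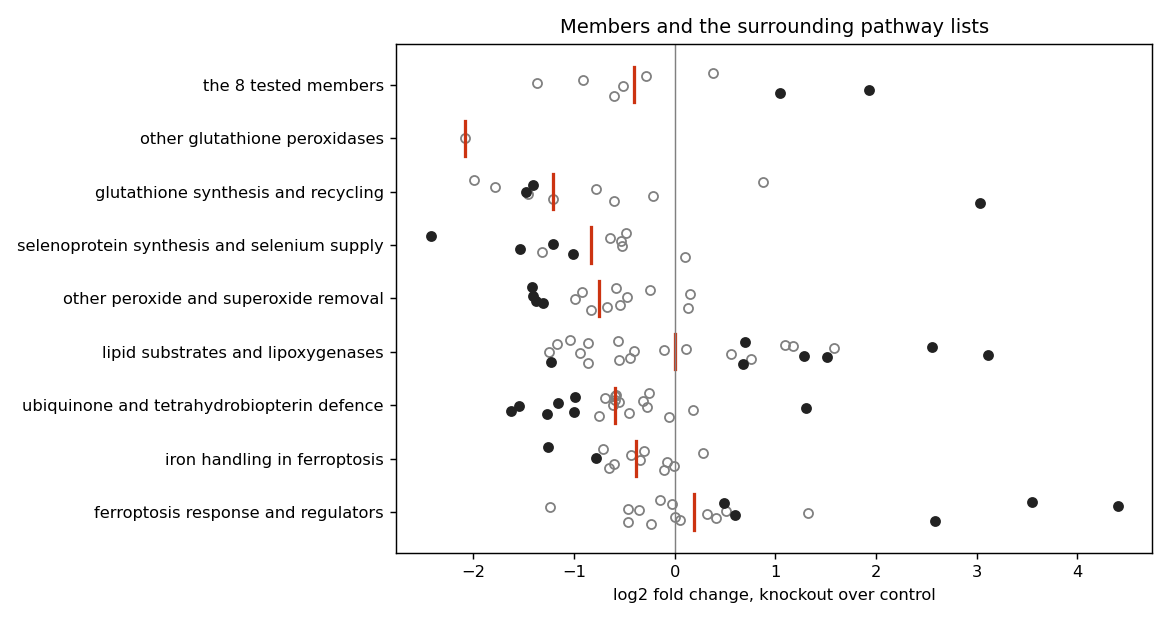
Log2 fold change (horizontal axis, knockout over control) of the 8 tested members and of the tested genes in each of the 8 pathway lists; filled circles passed an adjusted p of 0.05, open circles did not, and red lines mark list medians. The median is -1.21 for glutathione synthesis and recycling, -0.83 for selenoprotein synthesis and 0.19 for the response genes.

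Markers of several cell types moved with these genes. Of 9 proximal tubule markers 7 fell and none rose (9 fell without the library labelled knockout 1), and their summed level was 11111 to 14477 CPM in the controls and 1961 to 5960 CPM in the knockouts, with the library labelled knockout 1 at 5960 CPM. This is the segment that makes most of the Gpx3 of the kidney. Of 6 fibroblast markers 3 rose, all 6 without the library labelled knockout 1, and their summed level was 249 to 420 CPM in the controls, 748 CPM in the library labelled knockout 1, and 2934 and 3273 CPM in knockouts 2 and 3. The macrophage markers summed to 540 CPM in the library labelled knockout 1, 1915 CPM in knockout 2 and 746 CPM in knockout 3. Gpx7 and Gpx8, like both of these sums, were lowest in the controls, intermediate in the library labelled knockout 1 and higher in knockouts 2 and 3. In knockouts 2 and 3 Gpx7 was at 12.2 and 11.7 CPM, and Gpx8 at 49.7 and 43.1 CPM. The macrophage sum was highest in knockout 2 and the fibroblast sum in knockout 3. Of 4 T cell markers 3 rose, and their summed level was 3.53 to 5.04 CPM in the controls and 11.6 to 36.1 CPM in the knockouts, highest in knockout 2. The part of any of these cell types in the members' values was not tested. The markers of the thick ascending limb, principal cell and intercalated cell, 5, 4 and 4 genes, had no call, and 1 of the 3 markers of the distal convoluted tubule fell. In the thick ascending limb, a segment where Cre acts, the median log2 fold change of the 5 markers was -1.46, and without the library labelled knockout 1 it was -2.47, with 4 of the 5 called lower. The principal and intercalated cell lists each had 1 marker called lower without that library.

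Outside the members, the tested genes whose centred log2 CPM lay closest to Gpx7 over the 6 libraries were Numbl, Apba1 and Ifi27l2a, at root mean square differences of 0.14 to 0.15. Atad2, Zfp37 and Sp100 were closest to Gpx8, at 0.07 to 0.10. Gpx3 was closest to 9430065F17Rik, Fnip2 and Asl, at 0.10 to 0.11, and Gpx1 to Neu2, C8g and Slc9a3r1, at 0.04 to 0.08. Gpx4 was closest to Psmb5, Mfsd3 and St3gal3, at 0.05 to 0.06. These 6 libraries fall into 2 groups, so genes that differ between the groups by a like amount are near each other by this measure.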

How the data were processed

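The deposited files hold raw counts of reads per gene for 6 whole-kidney libraries in 2 tables. Per the study's methods and the submitters' processing notes, the authors sequenced poly-A RNA as single-end reads from an unstranded kit, called bases with CASAVA 1.8.2, trimmed with Trimmomatic, aligned to mm9 with TopHat2 2.0.11, discarded reads with several alignments and used HTSeq for counting. Which annotation and strand option were used is not given in the sources used here. Unique mapping lowers counts of genes with near-identical copies.

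Groups came from the sample labels, and the counts were tested as deposited with edgeR 4.0.16 (quasi-likelihood test, R 4.3.3), TMM scaling, filterByExpr with a minimum count of 10 and Benjamini-Hochberg adjustment over all 15171 tested genes. Of 24422 genes, 4664 had no count. Log2 CPM used a prior count of 2. Libraries of 1 group differed by more than sampling noise, so all 6 were kept as separate samples. The labels name no animals, so p-values measure the spread between these samples. Alternatives were DESeq2 1.42.0, limma-voom (limma 3.58.1), other scalings, filters, a replicate block and leaving out each library. Scripts were tested on simulated data. The members and gene lists were chosen with earlier results of these data known. Named genes were all 10 members, up to 2 called genes in each direction of each pathway list with the largest changes (in a list without calls, the most abundant), the 3 genes closest in pattern to a member, Tfrc, and markers that moved with a result. One gene that this rule names is not reported here. Transcripts, loci and codons came from GENCODE M1 (NCBIM37). The longest protein-coding transcript gave each length. BLAST+ 2.17.0 found other loci of at least 100 bases and 95% identity.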

Additional observations from a re-analysis of the deposited data

How the results depend on the processing

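None of the 8 tested members changed sign in the 15 alternatives run for each, and 99 of the 120 values kept their side of the threshold, 14 lost a call and 7 gained one. Members called numbered 2 in the fit reported, 5 with DESeq2 (Gpx7, Gpx8, Gpx1, Gpx3 and Alox15), 0 with limma-voom (2030 of all genes; 6 members and 5647 genes at an unadjusted p under 0.05) and 4 at an adjusted p under 0.10 (33.2% of all genes). Leaving out each library gave 0 to 6 members, 0 to 5332 of all genes (2612 as reported) and 0 to 64 pathway genes (32 as reported), the highest of each without the library labelled knockout 1. At an unadjusted p under 0.05 the 5 fits without 1 library that called no member held 2 to 4 of 8 or 9 members and 4270 to 4823 of 15408 to 15624 genes. DESeq2 called 4861 genes and 60 pathway genes. With library totals alone 81.8% of calls were higher in the knockouts, against 61.4% with TMM, and Acsl4 was called. Gpx3 had an adjusted p of 0.673 in the newer edgeR quasi-likelihood version and 0.000687 with DESeq2; the cause was not tested. Same-numbered libraries deviated with correlations of -0.13, 0.01 and 0.21, so no pairing by number was seen, although so few libraries cannot exclude it. The fit with a replicate block called 0 members, 0 pathway genes and 0 genes in all (3, 65 and 5432 at an unadjusted p under 0.05). Gpx7, at 27 to 244 counts, is the thinnest of the tested members, and Gpx2 and Alox15 did not pass the count filter of the fit reported. Transcripts do not measure peroxidase activity, selenium or lipid oxidation.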
